A study of Mus musculus with 12 samples.

Results

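The endothelial cell transcripts described here are 42 mouse genes of the cells that line blood and lymphatic vessels, among them the junction gene Pecam1, the fenestral diaphragm gene Plvap and the arterial ligand Efnb2. They were taken as a list of gene symbols, drawn up with earlier results of these data known and with no threshold on their values, and matched to Ensembl identifiers through GENCODE M21. All 42 were found among the 38924 genes of the deposited tables, and all 42 passed the filter on low counts, as did 16645 genes in all. RNA had been sequenced from 12 pancreatic neuroendocrine tumors (PanNETs) of RIP1Tag2 mice on the C57Bl6 strain, in which the rat insulin promoter drives the SV40 large T antigen in pancreatic beta cells, so that insulinomas form. Saline had been given to the mice of 4 control tumors, sunitinib, which blocks the kinases of the VEGF and PDGF receptors, to those of another 4, and rapamycin plus sunitinib (R+S) to those of the last 4, rapamycin being an inhibitor of mTOR complex 1. Every mouse carried the same transgene, treatment began at 15.5 weeks of age, and it lasted 4 days. Rapamycin alone is not analysed here, so that R+S is compared only with saline and with sunitinib.

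Endothelial cells hold together through adherens and tight junctions, carry a coat of sialomucins on the luminal side, and read VEGF through receptor tyrosine kinases. Islets and the tumors that arise from them have fenestrated capillaries, whose pores are closed by diaphragms built from PLVAP. Arteries, veins, capillaries and lymphatic vessels share most of these genes and differ in a few: ephrin-B2, SOX17 and BMX mark arteries, EPHB4 marks veins, endomucin marks capillaries and veins, von Willebrand factor is most abundant in large vessels and veins, and LYVE1 marks lymphatic endothelium and also some macrophages.

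Counts on genes ranged from 31872342 to 44215054 per tumor. Sunitinib-treated tumor 6 stood apart: across genes its log2 CPM (CPM being the count scaled to the size of the normalized library) correlated at 0.872 to 0.895 with the other sunitinib-treated tumors, against 0.957 to 0.991 for the other pairs within groups. Summed over 10 beta-cell markers it had 1850.0 CPM, and the other 11 tumors had 31250 to 76750 CPM. Pancreatic acinar genes (21 markers) summed to 41.05 to 128 CPM in control, 10920 to 39430 CPM in sunitinib-treated and 2727 to 16450 CPM in R+S-treated tumors, and 20 of the 21 were higher in either treated group than in control tumors. The sample labels carry prefixes whose meaning they do not give: all 4 control tumors have 1 prefix, 3 of the 4 sunitinib-treated tumors have another, 2 of the 4 R+S-treated tumors share a further one, and groups never have a prefix in common, and what the prefix marks cannot be told apart from treatment. The labels do not say whether tumors of a group came from separate mice, and p-values measure the spread between these tumors.

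All 42 genes had reads in every tumor, with the lowest count being 4, for Bmx, and the lowest count of Pecam1 being 345. Values by tumor are given in the order of the tumor numbers in the labels, which are 1, 2, 3 and 4 for control, 5, 6, 8 and 12 for sunitinib and 4, 5, 7 and 10 for R+S. Coordinates below are those of the gene in GENCODE M21 on GRCm38. Summed over the 42 genes, control tumors had 1048 to 1414 CPM, sunitinib-treated tumors 203 to 286 CPM and R+S-treated tumors 321 to 411 CPM. The 3 groups did not overlap in this sum. In control tumors, per kilobase of exon, Plvap was the highest of the 42 at 73.8 CPM per kb, followed by the endoglin gene Eng at 17.0, Cdh5 at 14.4 and Pecam1 at 13.6 CPM per kb, and Bmx was the lowest at 0.0928 CPM per kb. Because the RNA came from whole tumors, fewer endothelial cells and less of an RNA per endothelial cell cannot be told apart.

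**Figure D1:**
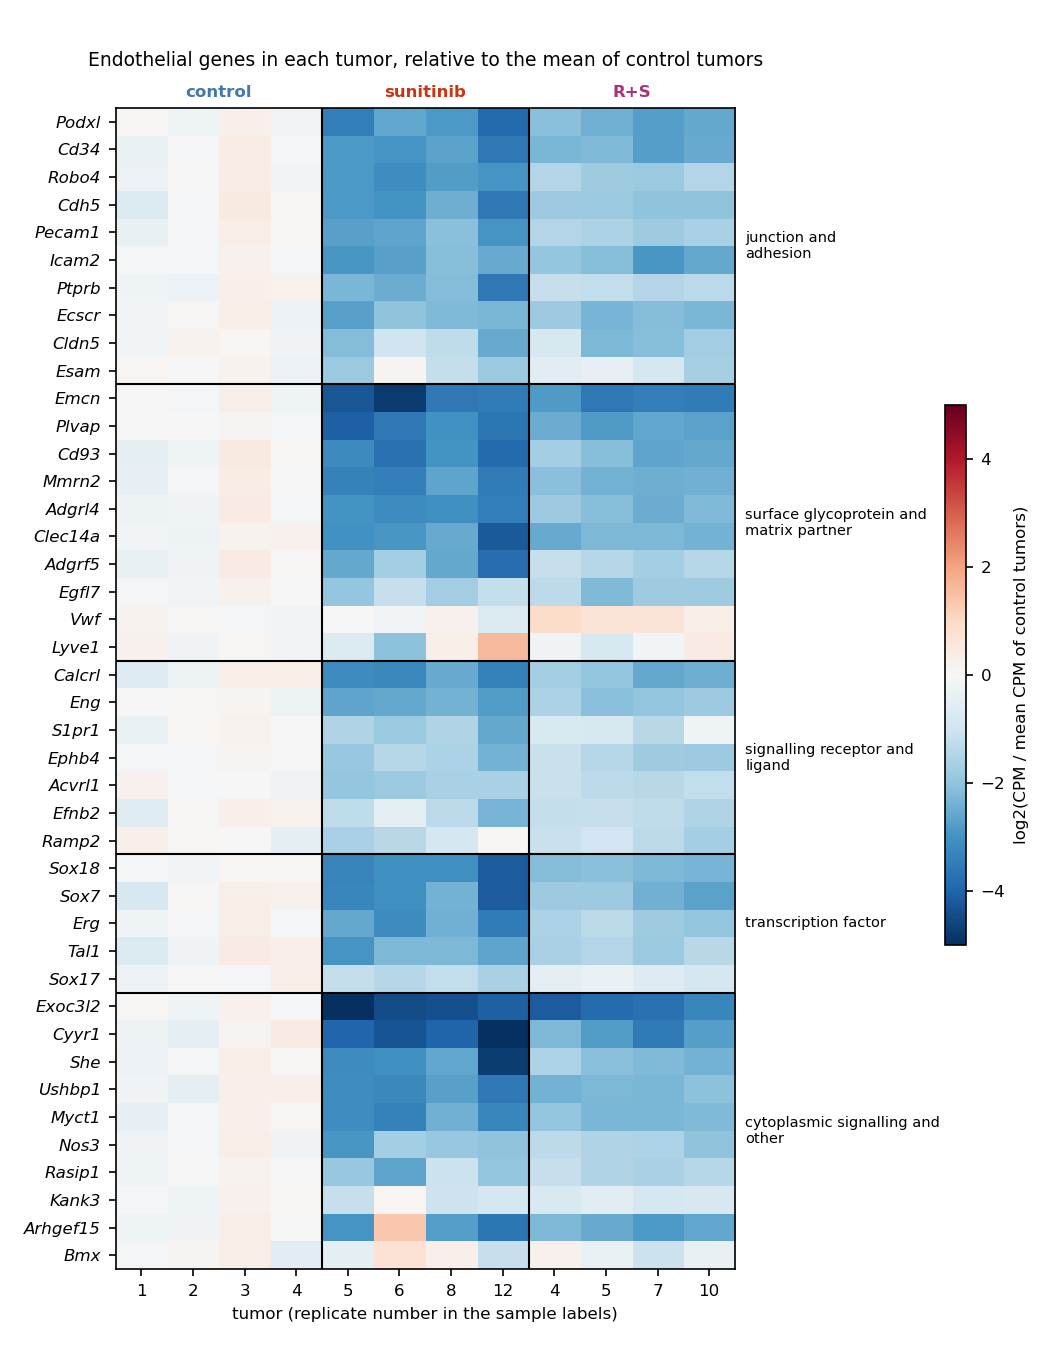
Each row is a gene, each column a tumor, and the colour is log2 of CPM over the mean CPM of the 4 control tumors (blue lower, red higher), with rows grouped by role. Most rows are blue in sunitinib-treated tumors and a paler blue in R+S-treated tumors, while Vwf, Lyve1 and Bmx have treated tumors on either side of the control level and Arhgef15 is high in sunitinib-treated tumor 6.

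The first comparison asked what sunitinib alone did to these genes. Sunitinib-treated tumors had lower levels of 34 of the 42 genes than control tumors, and higher levels of 0, by edgeR's quasi-likelihood test at an adjusted p under 0.05 over all 16645 genes, of which 2.55% were called lower and 1.93% higher. The median log2 fold change of the 42 genes was -2.55, against 0.03 over all genes tested. In each of the 34, every sunitinib-treated tumor lay below every control tumor, as was the case for 5.76% of all genes. The 8 genes not called were Esam, Vwf, Lyve1, Ramp2, Efnb2, Bmx, Arhgef15 and Kank3. Without sunitinib-treated tumor 6, Arhgef15, Efnb2, Esam and Kank3 were called lower too, which made 38. With the acinar score as a covariate 0 of the 42 were called by edgeR, as were 0 of all genes, while the median log2 fold change of the 42 was -2.39 and 20 of them had an unadjusted p under 0.05, and the part of the acinar genes in the loss was not tested.

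The second comparison set R+S against saline. Here 32 of the 42 genes were lower in R+S-treated than in control tumors and 0 were higher, where 2.61% of all genes were called lower and 1.55% higher. The median log2 fold change was -1.79, against 0.01 over all genes tested. The tumors did not overlap in 38 genes in the lower direction (11.9% of all genes) and in Vwf in the higher direction (11.6% of all genes). The 10 genes not called were those 8, with S1pr1 and Sox17. The count ranged from 25, without R+S-treated tumor 7, to 36, without sunitinib-treated tumor 6, and by DESeq2 it was 35, among them Vwf as higher. With the acinar score as a covariate edgeR called 0 of the 42 and 0 of all genes, with a median log2 fold change of -1.72 over the 42 and 15 of them at an unadjusted p under 0.05.

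The third comparison asked whether adding rapamycin to sunitinib changed the loss. In R+S-treated tumors 15 of the 42 genes were higher than in sunitinib-treated tumors and 0 were lower, where 2.63% of all genes were called higher and 4.58% lower. The 15 were Pecam1, Cdh5, Robo4, Ptprb, Plvap, Cd93, Mmrn2, Vwf, Adgrl4, Eng, S1pr1, Erg, Sox18, Ushbp1 and Cyyr1. The median log2 fold change was 0.78, against -0.03 over all genes tested, and the tumors did not overlap in 20 genes (8.90% of all genes), which added Acvrl1, Sox17, Tal1, She and Myct1. The calls depended on which tumors were in the fit: by edgeR 0 of the 42 were called without R+S-treated tumor 4, 5 or 7, 2 without R+S-treated tumor 10, 7 without sunitinib-treated tumor 12, and 7 or 8 without control tumor 2, 3 or 4, against 13 without sunitinib-treated tumor 6, which lost Cdh5, Mmrn2, S1pr1 and Ushbp1 and added Adgrf5 and Podxl. Each of the 15 calls was lost in at least 3 of the 12 fits that left out a tumor, from 3 for Robo4 and Adgrl4 to 11 for S1pr1. In the 3 fits that called 0 of the 42, the calls over all genes fell from 1200 to 1, 0 and 1, the median log2 fold change of the 42 was 0.74, 0.79 and 0.79, and the unadjusted p was under 0.05 for 24, 25 and 27 of them. With only the 8 tumors compared 0 of the 42 and 3 of all genes were called, with a median of 0.78 over the genes tested of the 42 and 22 of them at an unadjusted p under 0.05, while DESeq2 called 21 with all tumors.

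Because R+S against sunitinib and sunitinib against control share the sunitinib-treated tumors, the degree of recovery is given as levels, with no test. Over the 34 genes that were lower under sunitinib, the median level was 13.1% of control in sunitinib-treated tumors (range 4.44% to 39.3%) and 23.9% in R+S-treated tumors (range 7.57% to 68.5%). The share of the loss that was regained, taken as the gain over sunitinib divided by the difference between control and sunitinib, had a median of 12.4%. It ran from -9.32% for Egfl7, a secreted vascular matrix protein, to 48.2% for the arterial transcription factor Sox17. In 2 of the 34 genes, Sox17 and S1pr1, the R+S-treated tumors averaged over 50% of control. By role, the median share regained was 7.96% for junction and adhesion genes, 9.49% for surface and matrix genes, 13.3% for signalling genes, 19.4% for transcription factors and 11.1% for cytoplasmic genes. These medians are over 9, 8, 5, 5 and 7 genes. The share depends on the depth of the loss, and the fold of R+S over sunitinib orders the genes otherwise. Its medians by role were 1.61, 1.84, 1.66, 1.92 and 1.75 in the same order. The fold was 1.75 for Sox17, against a median of 1.84 over the 34 genes. Cyyr1 had the highest fold, 3.085, and a share regained of 10.4%.

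**Figure D2:**
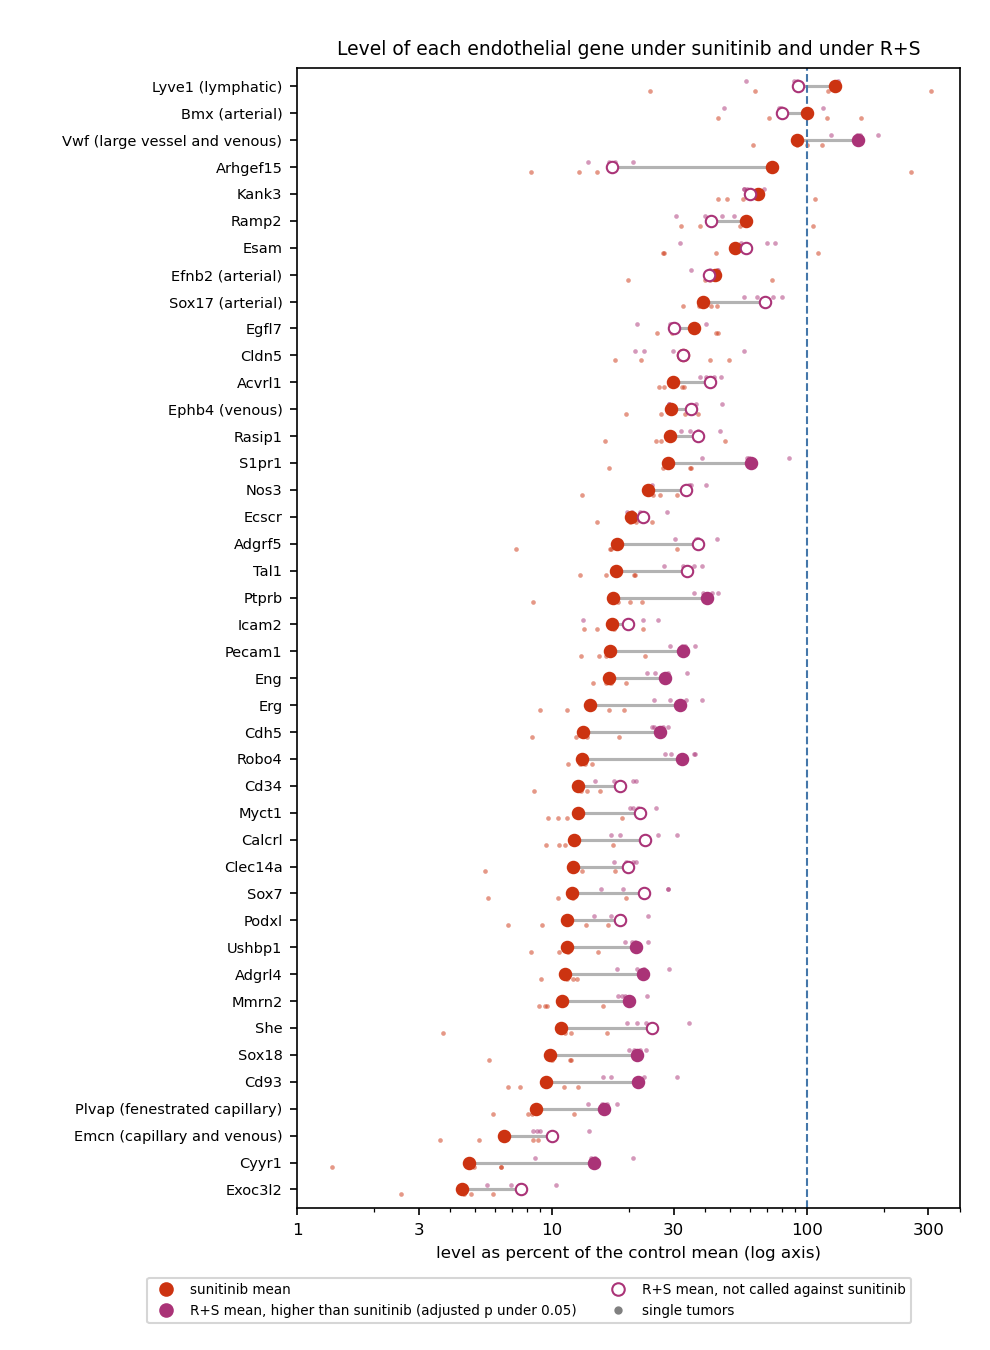
Each row is a gene, the large points are the group means in percent of the mean of control tumors on a logarithmic axis, the small points are single tumors, and a filled R+S point marks a gene called higher in R+S-treated than in sunitinib-treated tumors. The R+S means mostly lie to the right of the sunitinib means and far left of 100%, with a median of 23.9% against 13.1% over the 34 genes lower under sunitinib.

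Promoter sequences are shown for 6 of the genes that the results turn on: Exoc3l2, Cyyr1 and Emcn, which had the lowest log2 fold changes under sunitinib, Efnb2 and Ephb4, the arterial and venous pair, and Kank3, which was not called. Each is the 250 bases before the RefSeq start on GRCm38.p6, written 5′ to 3′ on the strand of the gene (RefSeq and GENCODE starts differ for some genes), with AGGAAG or its complement CTTCCT, a form of the ETS factor site, in capitals.
Exoc3l2 (chr7:19463037-19463286, plus strand): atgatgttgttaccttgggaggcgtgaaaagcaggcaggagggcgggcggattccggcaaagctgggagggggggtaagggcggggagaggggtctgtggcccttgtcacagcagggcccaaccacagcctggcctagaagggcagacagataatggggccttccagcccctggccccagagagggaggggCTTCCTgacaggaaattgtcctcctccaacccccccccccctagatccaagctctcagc
Cyyr1 (chr16:85550374-85550623, minus strand): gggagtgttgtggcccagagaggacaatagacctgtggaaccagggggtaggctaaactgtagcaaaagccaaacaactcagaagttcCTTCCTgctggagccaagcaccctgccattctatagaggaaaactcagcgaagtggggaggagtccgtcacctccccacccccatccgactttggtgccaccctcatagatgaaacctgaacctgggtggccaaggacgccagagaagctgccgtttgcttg
Emcn (chr3:137340828-137341077, plus strand): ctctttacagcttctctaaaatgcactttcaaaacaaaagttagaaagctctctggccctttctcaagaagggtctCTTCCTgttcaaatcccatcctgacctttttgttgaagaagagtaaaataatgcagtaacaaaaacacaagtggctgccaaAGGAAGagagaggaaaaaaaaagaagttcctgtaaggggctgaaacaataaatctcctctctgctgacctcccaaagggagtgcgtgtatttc
Efnb2 (chr8:8661243-8661492, minus strand): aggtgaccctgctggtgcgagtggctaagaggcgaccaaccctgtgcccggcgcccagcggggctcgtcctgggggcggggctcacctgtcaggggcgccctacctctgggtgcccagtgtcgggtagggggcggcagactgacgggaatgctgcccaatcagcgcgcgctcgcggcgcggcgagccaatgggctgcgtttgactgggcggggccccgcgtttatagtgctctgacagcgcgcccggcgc
Ephb4 (chr5:137349859-137350108, plus strand): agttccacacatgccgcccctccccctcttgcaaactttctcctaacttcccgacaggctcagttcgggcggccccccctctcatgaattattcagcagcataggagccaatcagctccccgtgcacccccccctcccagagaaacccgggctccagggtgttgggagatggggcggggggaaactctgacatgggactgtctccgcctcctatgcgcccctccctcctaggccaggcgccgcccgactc
Kank3 (chr17:33810273-33810522, plus strand): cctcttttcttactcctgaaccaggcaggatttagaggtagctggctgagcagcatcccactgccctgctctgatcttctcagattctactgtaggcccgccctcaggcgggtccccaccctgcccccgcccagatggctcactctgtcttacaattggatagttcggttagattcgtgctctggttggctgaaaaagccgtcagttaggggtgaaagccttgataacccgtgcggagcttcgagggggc

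Such windows were at hand for 22 of the 42 genes, and strings were searched on both strands. AGGAAG was in the windows of 13 of the 22 (59.1%), against 32.3% of 27025 genes with a window. CAGGAA was in 14 (63.6%, against 28.3%), and AACAGGAA, a composite of forkhead and ETS sites, was in 4 (18.2%, against 2.5%). The SOX string AACAAT was in 4 (18.2%, against 10.9%), as was the GATA string TTATCT (against 11.4%), and the bare ETS core GGAA, which is contained in or overlaps several of these strings, was in 20 (90.9%, against 94.2%). A match describes these letters and is no binding site. The genes printed above are not a sample of the 22. The windows of She (10.8% of control under sunitinib) and Clec14a (12.1%) had no AGGAAG, and those of Egfl7 (36.1%) and Rasip1 (29.0%) had it. Robo4 (13.1%) had it too. Whether the string goes with the loss was not tested. Windows were not at hand for Pecam1, Cdh5, Esam, Icam2, Podxl, Ptprb, Ecscr, Plvap, Cd93, Mmrn2, Vwf, Lyve1, Acvrl1, S1pr1, Ramp2, Sox7, Sox17, Sox18, Nos3 and Arhgef15.

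Among the 10 genes of junctions and adhesion, 9 were lower under sunitinib, 9 were lower under R+S, and 4 were higher under R+S than under sunitinib. Pecam1 (chr11:106654217-106750628), the adhesion molecule CD31 of endothelial junctions, had 65.5, 78.4, 108 and 88.1 CPM in control tumors, 13.0, 13.8, 19.8 and 11.1 CPM in sunitinib-treated tumors and 30.9, 28.2, 24.6 and 27.4 CPM in R+S-treated tumors. The 3 groups did not overlap. Its level was 17.0% of control under sunitinib, a log2 fold change of -2.56 (SE 0.20, adjusted p = 2.38e-05), and 32.7% under R+S, which differed from sunitinib by 0.95 (SE 0.19, adjusted p = 0.0277) on the log2 scale.

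Cdh5 (chr8:104101625-104144511), which encodes VE-cadherin of the adherens junction, had 36.3, 57.9, 83.0 and 65.1 CPM in control tumors, 8.29, 7.54, 11.1 and 5.04 CPM in sunitinib-treated tumors and 17.3, 16.6, 15.01 and 15.2 CPM in R+S-treated tumors. Here too the 3 groups lay apart, with sunitinib lowest. The log2 fold change was -2.92 (SE 0.28, adjusted p = 7.1e-05) under sunitinib and -1.92 (SE 0.26, adjusted p = 0.00189) under R+S, and R+S exceeded sunitinib by 1.00 (SE 0.26, adjusted p = 0.0425). That last call was lost in 9 of the 12 fits that left out a tumor (adjusted p = 0.0543 to 0.114), among them the fit without sunitinib-treated tumor 6, where the difference was 0.97 (adjusted p = 0.0543). Esam (chr9:37528078-37538319), a cell adhesion molecule of endothelial tight junctions and of platelets, had 33.3, 30.7, 35.5 and 25.9 CPM in control tumors, 8.57, 34.6, 13.7 and 8.66 CPM in sunitinib-treated tumors and 21.9, 23.6, 17.2 and 9.95 CPM in R+S-treated tumors. Sunitinib-treated tumor 6 was at the control level while the other 3 sunitinib-treated tumors were below every control tumor. The difference of sunitinib from control was -0.93 (SE 0.42, adjusted p = 0.251) with all tumors and -1.60 (adjusted p = 0.00698) without tumor 6. Platelet markers (8 genes) summed to 3.00 to 7.91 CPM over all tumors.

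Robo4 (chr9:37401897-37415115), a guidance receptor that stabilizes vessels, had 18.3, 22.0, 29.1 and 20.5 CPM in control tumors, 3.04, 2.60, 3.22 and 2.89 CPM in sunitinib-treated tumors and 8.07, 6.57, 6.25 and 8.17 CPM in R+S-treated tumors. Ptprb (chr10:116275523-116389535), the phosphatase VE-PTP that acts on TIE2 and VE-cadherin, had 61.9, 59.1, 86.6 and 81.2 CPM in control tumors, 14.7, 13.1, 16.2 and 6.10 CPM in sunitinib-treated tumors and 32.4, 30.5, 26.0 and 28.3 CPM in R+S-treated tumors. In both genes the 3 groups did not overlap. R+S exceeded sunitinib by 1.31 (SE 0.19, adjusted p = 0.0143) in Robo4 and by 1.23 (SE 0.25, adjusted p = 0.0277) in Ptprb, which were the highest log2 fold changes of the 42 genes in that comparison after Cyyr1. The lower level of Ptprb under R+S than in control was -1.30 (SE 0.25, adjusted p = 0.0152), a call that was lost without control tumor 3, R+S-treated tumor 5 or R+S-treated tumor 7 (adjusted p = 0.0519 to 0.0601). The adhesion molecule Icam2, the tight junction gene Cldn5, the sialomucins Cd34 and Podxl and the chemotaxis regulator Ecscr were lower in both treated groups, at 11.5% of control (Podxl) to 32.8% (Cldn5) under sunitinib and 18.6% (Podxl) to 32.8% (Cldn5) under R+S, and none of these 5 was called higher under R+S than under sunitinib. Cldn5 was lost from the calls of sunitinib against control in 10 of the 12 fits that left out a tumor (adjusted p = 0.0511 to 0.114), all but those without sunitinib-treated tumor 6 or R+S-treated tumor 4, and from those of R+S against control in 8 (adjusted p = 0.059 to 0.151), all but those without sunitinib-treated tumor 5, 6 or 12 or R+S-treated tumor 4.

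Surface glycoproteins and their matrix partners numbered 10, of which 8 were lower under sunitinib, 8 lower under R+S, and 5 higher under R+S than under sunitinib. Plvap (chr8:71497765-71511752), the diaphragm protein of fenestrated capillaries, had 143, 143, 162 and 139 CPM in control tumors, 8.63, 12.3, 17.9 and 11.8 CPM in sunitinib-treated tumors and 26.4, 20.4, 24.0 and 23.0 CPM in R+S-treated tumors. Every sunitinib-treated tumor was below every R+S-treated tumor, and these were far below the control tumors. It stood at 8.64% of control under sunitinib (log2 fold change -3.53, SE 0.20, adjusted p = 4.67e-06) and at 16.0% under R+S (log2 fold change -2.64, SE 0.19, adjusted p = 6.16e-05), and R+S exceeded sunitinib by 0.89 (SE 0.19, adjusted p = 0.0277).

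Emcn (chr3:137341067-137432185), the endomucin gene of capillaries and veins, had 52.5, 49.4, 64.6 and 46.3 CPM in control tumors, 2.76, 1.93, 4.49 and 4.68 CPM in sunitinib-treated tumors and 7.46, 4.47, 4.79 and 4.65 CPM in R+S-treated tumors. Every treated tumor lay far below every control tumor, and the treated groups overlapped. The log2 fold change was -3.94 (SE 0.30, adjusted p = 1.93e-05) under sunitinib and -3.32 (SE 0.29, adjusted p = 0.000129) under R+S, and the difference between R+S and sunitinib, 0.63 (SE 0.28, adjusted p = 0.151), was not called.

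Vwf (chr6:125546774-125686679), von Willebrand factor, which carries platelets to injured vessel walls, went another way. It had 14.5, 13.4, 12.1 and 11.8 CPM in control tumors, 13.0, 11.8, 14.9 and 7.93 CPM in sunitinib-treated tumors and 24.7, 21.0, 20.3 and 16.1 CPM in R+S-treated tumors. The sunitinib-treated tumors overlapped the control tumors, with tumor 12 the lowest, and every R+S-treated tumor was above every tumor of the other groups. The level under sunitinib was 91.9% of control, a log2 fold change of -0.12 (SE 0.20, adjusted p = 0.764), and under R+S it was 159%, a log2 fold change of 0.66 (SE 0.20, adjusted p = 0.0859) that was not called, but was called higher without sunitinib-treated tumor 12 (adjusted p = 0.0301), by DESeq2 and with the 8 tumors compared alone. R+S exceeded sunitinib by 0.79 (SE 0.20, adjusted p = 0.0407), a call lost in 9 of the 12 fits that left out a tumor (adjusted p = 0.0521 to 0.114).

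Lyve1 (chr7:110850607-110863239), a hyaluronan receptor of lymphatic endothelium, spread over 32.02, 24.2, 28.2 and 25.2 CPM in control tumors, 17.2, 6.63, 33.3 and 83.9 CPM in sunitinib-treated tumors and 24.4, 15.9, 25.0 and 36.3 CPM in R+S-treated tumors. Sunitinib-treated tumor 12 was the highest of all tumors and sunitinib-treated tumor 6 the lowest. Some macrophages also make Lyve1, and 8 macrophage markers summed to 476.1, 248.4, 715.7 and 766.7 CPM in sunitinib-treated tumors, the tumor order of Lyve1. The sum of 7 other lymphatic genes was 237.4, 105.4, 127.6 and 70.62 CPM there, lowest in tumor 12. In control and in R+S-treated tumors neither sum had the order of Lyve1. Which cells the Lyve1 reads came from was not tested. No comparison called it: the log2 fold change was 0.36 (SE 0.57, adjusted p = 0.755) for sunitinib and -0.11 (SE 0.57, adjusted p = 0.94) for R+S against control, and -0.47 (SE 0.57, adjusted p = 0.593) for R+S against sunitinib. With sunitinib-treated tumor 12 left out, sunitinib differed from control by -0.53 on the log2 scale.

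The lectin-like Cd93 and Clec14a, their matrix ligand Mmrn2, the secreted Egfl7 and the adhesion G protein-coupled receptors Adgrl4 and Adgrf5 were all lower under sunitinib, at 9.52% of control (Cd93) to 36.1% (Egfl7), and all lower under R+S, at 19.8% (Clec14a) to 37.4% (Adgrf5). Cd93, Mmrn2 and Adgrl4 were also higher under R+S than under sunitinib, by 0.87 to 1.19 on the log2 scale. Of the 12 fits that left out a tumor, 7 lost this call for Cd93, 10 for Mmrn2 and 3 for Adgrl4. Egfl7 overlapped between R+S and sunitinib, with -0.26 (SE 0.22, adjusted p = 0.439). The lower level of Adgrf5 under R+S than in control, -1.42 (SE 0.34, adjusted p = 0.0413), was lost in 9 of the 12 fits that left out a tumor (adjusted p = 0.0512 to 0.131), all but those without sunitinib-treated tumor 5, 6 or 12.

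Of 7 receptors and ligands of vascular signalling, 5 were lower under sunitinib, 4 lower under R+S and 2 higher under R+S than under sunitinib. Eng (chr2:32646595-32682669), a coreceptor for BMP9 and TGF-beta, had 69.99, 72.1, 74.6 and 58.0 CPM in control tumors, 11.2, 11.7, 13.4 and 9.91 CPM in sunitinib-treated tumors and 23.2, 16.2, 17.5 and 19.5 CPM in R+S-treated tumors. Its groups did not overlap, and the log2 fold change was -2.57 (SE 0.15, adjusted p = 4.67e-06) under sunitinib, -1.84 (SE 0.15, adjusted p = 9.39e-05) under R+S and 0.73 (SE 0.14, adjusted p = 0.0261) between R+S and sunitinib. Acvrl1 (chr15:101128522-101145336), the ALK1 receptor that pairs with endoglin, had 21.6, 17.3, 18.7 and 16.2 CPM in control tumors, 4.85, 5.08, 6.07 and 5.97 CPM in sunitinib-treated tumors and 8.49, 7.40, 7.04 and 7.95 CPM in R+S-treated tumors. Its groups lay apart as well, with -1.75 (SE 0.16, adjusted p = 6.25e-05) under sunitinib, while the difference of R+S from sunitinib, 0.49 (SE 0.16, adjusted p = 0.0722), was not called.

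S1pr1 (chr3:115710433-115715072), the sphingosine 1-phosphate receptor that tightens junctions, had 12.5, 17.2, 17.8 and 16.0 CPM in control tumors, 5.59, 4.34, 5.54 and 2.66 CPM in sunitinib-treated tumors and 9.40, 9.22, 6.15 and 13.6 CPM in R+S-treated tumors. R+S-treated tumor 10 lay within the control range and the other 3 R+S-treated tumors lay below it. The level was 28.6% of control under sunitinib (log2 fold change -1.81, SE 0.29, adjusted p = 0.00319) and 60.4% under R+S (log2 fold change -0.73, SE 0.28, adjusted p = 0.171, not called). R+S exceeded sunitinib by 1.08 (SE 0.28, adjusted p = 0.044), a call lost in 11 of the 12 fits that left out a tumor (adjusted p = 0.0519 to 0.113).

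Calcrl and Ramp2 together encode the adrenomedullin receptor. Calcrl (chr2:84330626-84425411), the receptor itself, had 11.5, 14.9, 22.4 and 22.7 CPM in control tumors, 2.02, 1.91, 3.11 and 1.70 CPM in sunitinib-treated tumors and 5.52, 4.65, 3.05 and 3.29 CPM in R+S-treated tumors. All treated tumors were below the control tumors, with log2 fold changes of -3.03 (SE 0.32, adjusted p = 0.000168) under sunitinib and -2.11 (SE 0.31, adjusted p = 0.00269) under R+S. Ramp2 (chr11:101246028-101259546), its accessory protein, had 16.7, 14.7, 14.2 and 10.3 CPM in control tumors, 4.49, 5.31, 7.65 and 14.8 CPM in sunitinib-treated tumors and 6.49, 7.25, 5.55 and 4.28 CPM in R+S-treated tumors.

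In Ramp2, sunitinib-treated tumor 12 was at the control level and the other treated tumors were below every control tumor. The differences were -0.79 (SE 0.35, adjusted p = 0.233) for sunitinib and -1.24 (SE 0.35, adjusted p = 0.0704) for R+S against control, and neither was called. Without sunitinib-treated tumor 12, Ramp2 was called lower under sunitinib (log2 fold change -1.26, adjusted p = 0.0244), and without sunitinib-treated tumor 6 or 12 it was called lower under R+S (adjusted p = 0.0149 to 0.0368), as it was by DESeq2 and with the 8 tumors compared alone. A length of 33.4% of the exonic bases of Ramp2 overlaps Vps25 on the same strand, so that reads there cannot be assigned.

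Efnb2 and Ephb4 are the ligand and receptor that keep arteries and veins apart. Efnb2 (chr8:8617434-8661242), ephrin-B2 of arteries, had 14.6, 22.8, 25.9 and 24.4 CPM in control tumors, 9.16, 16.1, 8.76 and 4.36 CPM in sunitinib-treated tumors and 9.71, 9.82, 9.14 and 7.67 CPM in R+S-treated tumors. Sunitinib-treated tumor 6 overlapped the control tumors, and every R+S-treated tumor was below them. The log2 fold change of Efnb2 was -1.19 (SE 0.33, adjusted p = 0.0668) under sunitinib and -1.27 (SE 0.33, adjusted p = 0.0517) under R+S, neither of them called by edgeR, and without sunitinib-treated tumor 6 it was -1.56 (adjusted p = 0.0065) and -1.27 (adjusted p = 0.0105). Under R+S it was also called without control tumor 1 or sunitinib-treated tumor 12 (adjusted p up to 0.0458), by DESeq2, with each of the other library scalings, with acinar genes left out and with the 8 tumors compared alone, and under sunitinib by DESeq2.

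Ephb4 (chr5:137350109-137378669), the venous receptor, had 13.2, 13.4, 15.4 and 13.8 CPM in control tumors, 3.73, 5.22, 4.64 and 2.73 CPM in sunitinib-treated tumors and 6.46, 5.13, 4.02 and 4.01 CPM in R+S-treated tumors. All treated tumors were below the control tumors, and the treated groups overlapped. The log2 fold change of Ephb4 was -1.77 (SE 0.24, adjusted p = 0.00106) under sunitinib and -1.51 (SE 0.24, adjusted p = 0.00467) under R+S, and R+S did not exceed sunitinib at the threshold (log2 fold change 0.27, SE 0.24, adjusted p = 0.464). The log2 ratio of Efnb2 to Ephb4 was 0.62 ± 0.32 in control, 1.13 ± 0.42 in sunitinib-treated and 0.91 ± 0.25 in R+S-treated tumors (SD, n = 4). By two-sided exact permutation tests over the 70 arrangements of 4 tumors against 4, whose smallest p is 0.0286, p was 0.114 for sunitinib against control, 0.229 for R+S against control and 0.4 for R+S against sunitinib (adjusted over the 3 comparisons 0.342, 0.344 and 0.4), so the ratio was not shown to differ. The log2 ratio of Sox17 to Ephb4 was -2.26 ± 0.28 in control, -1.79 ± 0.35 in sunitinib-treated and -1.27 ± 0.22 in R+S-treated tumors (SD, n = 4), with exact p of 0.143, 0.0286 and 0.0857 in the same order and 0.143, 0.0858 and 0.129 after adjustment.

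**Figure D3:**
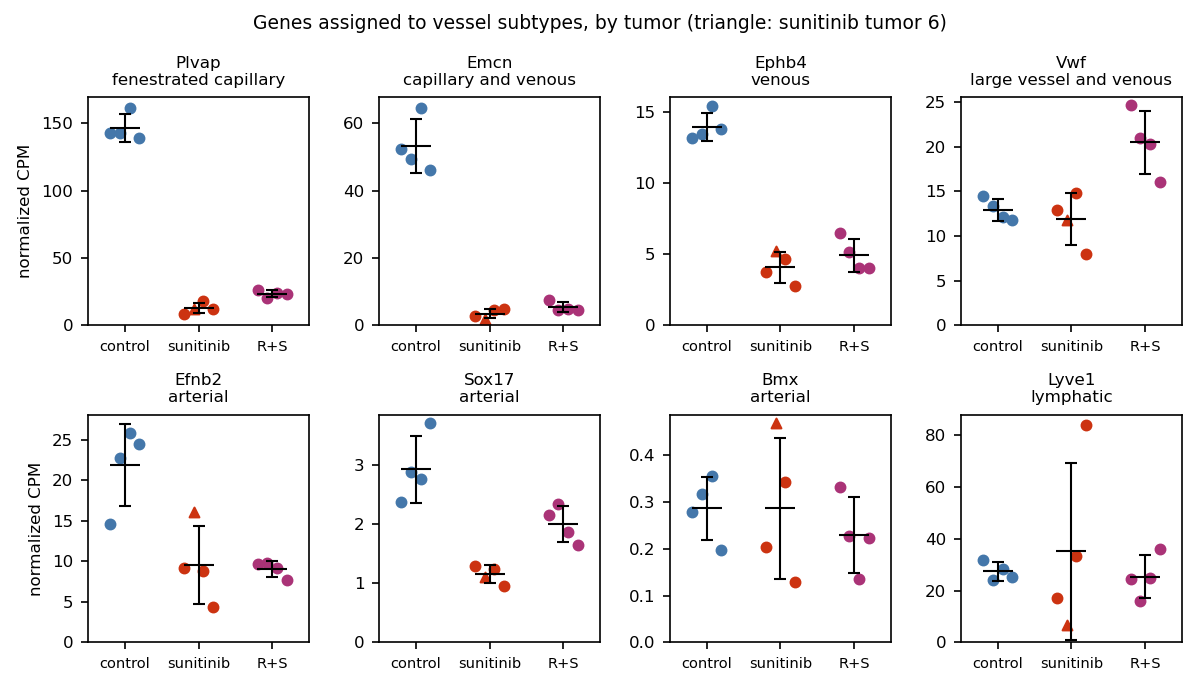
CPM of the genes that mark a kind of vessel, on a linear axis from 0, with a point for each tumor, a line at the group mean and error bars of 1 SD (n = 4). Emcn and Plvap show the widest gap between control and treated tumors, and Ephb4 and Sox17 a smaller one. Vwf and Bmx have sunitinib-treated tumors within the range of control tumors, and in Efnb2 only sunitinib-treated tumor 6 is within it. The sunitinib-treated tumors of Lyve1 lie on either side of that range.

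All 5 transcription factors were lower under sunitinib and 4 were lower under R+S. Erg (chr16:95359169-95586593), an ETS factor that maintains endothelial identity, had 7.68, 8.44, 11.1 and 8.65 CPM in control tumors, 1.51, 1.02, 1.71 and 0.802 CPM in sunitinib-treated tumors and 3.00, 3.48, 2.61 and 2.25 CPM in R+S-treated tumors. Its 3 groups did not overlap, with -2.82 (SE 0.29, adjusted p = 0.000126) under sunitinib, -1.66 (SE 0.27, adjusted p = 0.00554) under R+S and 1.16 (SE 0.27, adjusted p = 0.0338) between R+S and sunitinib. For Erg, the call between R+S and sunitinib was lost in 8 of the 12 fits that left out a tumor (adjusted p = 0.0504 to 0.109). Tal1 (chr4:115056426-115071755), a helix-loop-helix factor of blood and endothelial precursors, had 1.45, 2.09, 3.12 and 2.82 CPM in control tumors, 0.306, 0.497, 0.501 and 0.385 CPM in sunitinib-treated tumors and 0.777, 0.859, 0.653 and 0.916 CPM in R+S-treated tumors. Its log2 fold change was -2.48 (SE 0.31, adjusted p = 0.000532) under sunitinib and -1.56 (SE 0.29, adjusted p = 0.0122) under R+S, and the latter call was lost without control tumor 3 or R+S-treated tumor 4 or 7 (adjusted p = 0.0503 to 0.0537).

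The 3 SOXF factors act together in vessel growth, and Sox17 is the one tied to arteries. Sox7 (chr14:63943673-63950732) had 2.61, 4.81, 5.63 and 5.30 CPM in control tumors, 0.485, 0.553, 0.897 and 0.257 CPM in sunitinib-treated tumors and 1.30, 1.31, 0.870 and 0.718 CPM in R+S-treated tumors. Sox18 (chr2:181669836-181671640) had 11.96, 11.4, 13.6 and 13.1 CPM in control tumors, 1.25, 1.49, 1.48 and 0.706 CPM in sunitinib-treated tumors and 2.77, 2.93, 2.64 and 2.50 CPM in R+S-treated tumors. Both were below every control tumor in every treated tumor, with log2 fold changes of -3.05 (SE 0.41, adjusted p = 0.000937) for Sox7 and -3.34 (SE 0.25, adjusted p = 1.76e-05) for Sox18 under sunitinib, and R+S exceeded sunitinib in Sox18 by 1.13 (SE 0.24, adjusted p = 0.0277). The lower Sox7 under R+S (log2 fold change -2.12, SE 0.39, adjusted p = 0.0108) was lost from the calls without R+S-treated tumor 7 (adjusted p = 0.0503).

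Sox17 (chr1:4490931-4497354) had 2.37, 2.88, 2.76 and 3.72 CPM in control tumors, 1.30, 1.11, 1.24 and 0.963 CPM in sunitinib-treated tumors and 2.16, 2.35, 1.88 and 1.66 CPM in R+S-treated tumors. The groups did not overlap, and the R+S-treated tumors came up to the lowest control tumor. It was at 39.3% of control under sunitinib (log2 fold change -1.34, SE 0.23, adjusted p = 0.00524) and at 68.5% under R+S (log2 fold change -0.54, SE 0.23, adjusted p = 0.208, not called), and the difference of R+S from sunitinib, 0.80 (SE 0.23, adjusted p = 0.0565), was not called either, though it was by DESeq2, with at least 10 counts in every tumor, and without sunitinib-treated tumor 5 (adjusted p = 0.0469). Of its exonic bases 16.9% overlap another gene model.

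The cytoplasmic group of 10 held 7 genes lower under sunitinib, the same number lower under R+S, and 2 higher under R+S than under sunitinib. Nos3 (chr5:24364810-24384474), endothelial nitric oxide synthase, had 7.08, 7.72, 9.87 and 7.13 CPM in control tumors, 1.05, 2.46, 2.11 and 1.99 CPM in sunitinib-treated tumors and 3.19, 2.80, 2.75 and 1.96 CPM in R+S-treated tumors. Sunitinib-treated tumor 5 was the lowest, and all treated tumors were below control, with log2 fold changes of -2.06 (SE 0.29, adjusted p = 0.0012) under sunitinib and -1.57 (SE 0.28, adjusted p = 0.00926) under R+S. Of the exonic bases of Nos3, 32.3% overlap Atg9b or another gene model.

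Exoc3l2 (chr7:19463331-19496762), an exocyst-related gene that promotes traffic of VEGF receptor to the surface, had 11.3, 9.58, 12.8 and 10.2 CPM in control tumors, 0.281, 0.497, 0.528 and 0.642 CPM in sunitinib-treated tumors and 0.610, 0.758, 0.816 and 1.14 CPM in R+S-treated tumors. No other of the 42 fell so far: it was at 4.44% of control under sunitinib (log2 fold change -4.49, SE 0.31, adjusted p = 1.1e-05) and 7.57% under R+S (log2 fold change -3.72, SE 0.30, adjusted p = 0.0001), with 0.77 (SE 0.29, adjusted p = 0.102) between R+S and sunitinib, which was not called. Cyyr1 (chr16:85421533-85553397), a small membrane protein gene, had 9.80, 8.47, 13.0 and 15.5 CPM in control tumors, 0.740, 0.580, 0.739 and 0.160 CPM in sunitinib-treated tumors and 2.44, 1.67, 1.01 and 1.73 CPM in R+S-treated tumors. Its groups did not overlap, with -4.38 (SE 0.47, adjusted p = 0.000188) under sunitinib and with 1.61 (SE 0.43, adjusted p = 0.0452) between R+S and sunitinib, the highest of the 42. The call between R+S and sunitinib was lost in 10 of the 12 fits that left out a tumor (adjusted p = 0.0534 to 0.114). Counts of Cyyr1 were as low as 5 in a tumor.

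Arhgef15 (chr11:68943155-68957480) had 11.4, 11.8, 16.1 and 13.5 CPM in control tumors, 1.68, 33.8, 1.98 and 1.09 CPM in sunitinib-treated tumors and 2.75, 2.32, 1.82 and 2.20 CPM in R+S-treated tumors. Sunitinib-treated tumor 6 was above every other tumor and the other 3 sunitinib-treated tumors were below every control tumor. With all tumors the difference of sunitinib from control was -0.45 (SE 0.88, adjusted p = 0.807), and without tumor 6 it was -3.05 (adjusted p = 5.51e-05). Against control, R+S differed by -2.53 (SE 0.94, adjusted p = 0.156), and without tumor 6 by -2.53 (adjusted p = 0.000114).

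Kank3 and Bmx were not called in any comparison with all tumors. Kank3 was at 64.2% of control under sunitinib with all tumors (log2 fold change -0.64, SE 0.26, adjusted p = 0.204) and its log2 fold change was -1.01 (adjusted p = 0.00379) without sunitinib-treated tumor 6, where R+S differed from control by -0.74 (adjusted p = 0.0123). Bmx (chrX:164192842-164258193), an arterial tyrosine kinase, had 0.278, 0.317, 0.355 and 0.197 CPM in control tumors, 0.204, 0.470, 0.343 and 0.128 CPM in sunitinib-treated tumors and 0.333, 0.227, 0.136 and 0.223 CPM in R+S-treated tumors. Counts of Bmx were as low as 4 in a tumor, and no difference was called: the log2 fold change was 0.00 (SE 0.40, adjusted p = 0.999) under sunitinib and -0.32 (SE 0.42, adjusted p = 0.711) under R+S.

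Rasip1, She, Ushbp1 and Myct1 were lower under sunitinib, at 10.8% of control (She) to 29.0% (Rasip1), and lower under R+S, at 21.3% (Ushbp1) to 37.6% (Rasip1). Ushbp1 was also higher under R+S than under sunitinib (log2 fold change 0.89, SE 0.24, adjusted p = 0.0463), a call lost in 10 of the 12 fits that left out a tumor (adjusted p = 0.0535 to 0.117). Exonic bases of Rasip1 overlap other gene models over 42.9% of their length, so its reads are uncertain. Its call under R+S was lost without control tumor 2, 3 or 4 or R+S-treated tumor 5 or 7 (adjusted p = 0.0518 to 0.0755), and that of She without R+S-treated tumor 7 (adjusted p = 0.0504).

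To ask how the other genes stood relative to the junction genes, the fit was repeated with another scaling of the libraries. The scale was the geometric mean of the counts of Pecam1, Cdh5 and Esam in each tumor. Under this scaling the median log2 fold change of all genes was 2.29 for sunitinib against control and 1.44 for R+S against control. It was -0.85 for R+S against sunitinib. In the first comparison 94.7% of all genes were called higher. Relative to this reference, 15 of the other 39 genes were lower and 8 were higher under sunitinib, where 0.391% of all genes were called lower. With Tie1, Fli1 and Pecam1 as the reference instead (0.270% of all genes lower, 96.9% higher), 6 were lower and 14 higher, and the median of the 39 moved from -0.34 to 0.08. The 6 lower ones were all among the 15, namely Emcn, Plvap, Cd93, Sox18, Exoc3l2 and Cyyr1, and the 8 called higher were called with both references, namely Egfl7, Vwf, Lyve1, Ramp2, Efnb2, Sox17, Bmx and Kank3. The first reference is raised in sunitinib-treated tumor 6 by its Esam of 34.6 CPM, and Pecam1 is in both.

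Relative to the first reference, the log2 fold change of Emcn was -1.61 (SE 0.40) under sunitinib and -1.89 (SE 0.40) under R+S, and that of Plvap was -1.32 (SE 0.28) and -1.21 (SE 0.28). In Sox17 the relative difference was 0.89 (SE 0.38) under sunitinib and 0.87 (SE 0.38) under R+S, and in Vwf it was 2.05 (SE 0.31) and 2.05 (SE 0.31). Under R+S against control 11 of the 39 were lower (0.511% of all genes) and 3 higher (82.0% of all genes), and 7 of the 11 were lower with both references (0.378% of all genes with the second), namely Cd34, Podxl, Emcn, Plvap, Mmrn2, Exoc3l2 and Cyyr1. Vwf, Sox17 and Bmx were higher with both, and with the second reference 7 were lower and 6 higher (88.1% of all genes higher), which added S1pr1, Kank3 and Lyve1. Between R+S and sunitinib 0 of the 39 were higher (0.150% of all genes) and 4 were lower (45.8% of all genes), namely Egfl7, Ramp2, Arhgef15 and Kank3, which were lower with the second reference too (64.5% of all genes lower, 0.174% higher). With 1 tumor left out, the 14 called under R+S became 7 without R+S-treated tumor 5, 9 without control tumor 2 or 4 and 20 without sunitinib-treated tumor 12, and the 4 called between R+S and sunitinib became 0, 1 and 2 without R+S-treated tumor 5, 4 and 7, and 2 without sunitinib-treated tumor 12.

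**Figure D4:**
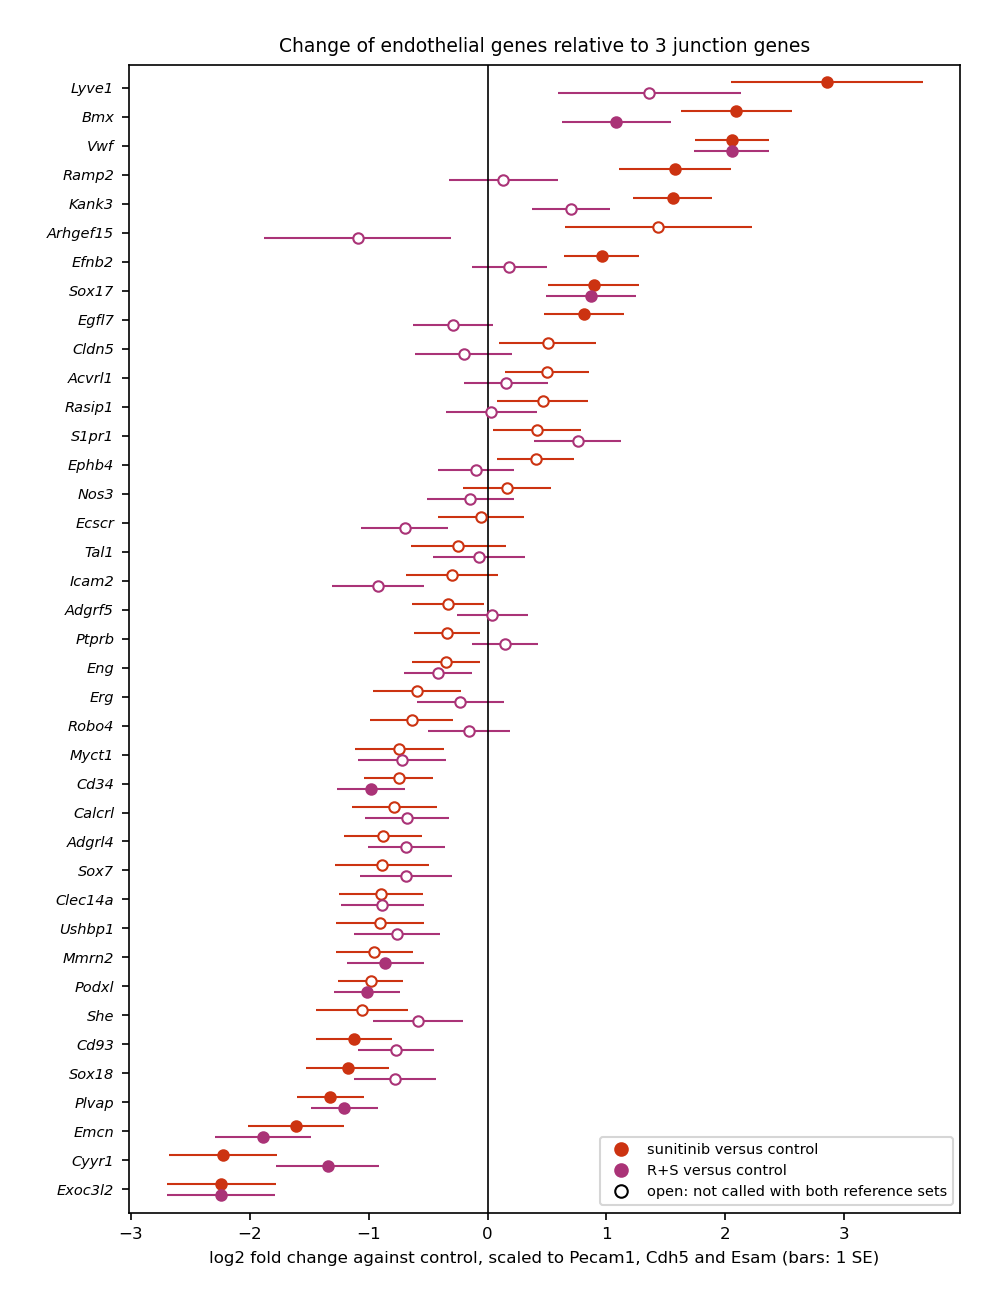
Log2 fold change of each gene against control, under sunitinib and under R+S, with libraries scaled to the geometric mean of the counts of Pecam1, Cdh5 and Esam. Bars are 1 SE, and filled points mark genes called with both references. Emcn, Plvap, Exoc3l2 and Cyyr1 lie below 0 in both and Vwf, Sox17 and Bmx above 0 in both.

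Other lists of vascular genes were read beside the 42. Of 17 further pan-endothelial genes, 10 were lower under sunitinib, 10 lower under R+S and 6 higher under R+S than under sunitinib, and under sunitinib Kdr, a VEGF receptor, fell by 4.83, Flt1, another one, fell by 4.42, Tie1 fell by 3.53 and Tmem204 fell by 3.50 on the log2 scale. Of 8 further arterial genes 3 were lower under sunitinib, and Nrp1, a coreceptor for VEGF, fell by 2.22, the connexin gene Gja5 fell by 1.65 and the semaphorin gene Sema3g fell by 1.04. Of 6 venous genes tested 2 were lower, and the apelin receptor gene Aplnr fell by 3.57 and Nrp2 fell by 1.29. Of 7 lymphatic genes 1 was lower, Flt4, a VEGF receptor that blood vessels of tumors can also carry, which fell by 3.68. Of 6 capillary genes tested 3 were lower, and Cd300lg fell by 5.14, Gpihbp1, which anchors lipoprotein lipase, fell by 4.23 and Rgcc fell by 2.30. Some genes of these lists lay on the other side of 0 without being called, up to 0.68 (Hey1) among arterial, 3.09 (Ackr1) among venous, 0.34 among lymphatic and 2.12 (Tmem100) among capillary genes. Pericyte and smooth muscle markers, the cells that wrap these vessels, were lower in 4 of 12 under sunitinib, namely Kcnj8, Rgs5, Notch3 and Pdgfrb, and in 2 of 12 under R+S, and Rgs5 and Notch3 were higher under R+S than under sunitinib, while 4 of the 12 had positive log2 fold changes under sunitinib that were not called, up to 4.57 for Cox4i2. Of 8 macrophage markers, cells some of which also make Lyve1, Mrc1 and Adgre1 were lower under sunitinib and Mrc1 alone was lower under R+S. Another 2 of the 8 had positive log2 fold changes under sunitinib that were not called, up to 0.31. Red cell markers, carried in the blood of these vessels, were lower in 5 of 5 tested in both treated groups, with a median log2 fold change of -6.11 under sunitinib and -4.30 under R+S. Of 7 duct markers, Sox9, Spp1 and Muc1 were higher under sunitinib, 1 had a negative log2 fold change of -0.51 that was not called, and 0 were called under R+S against control. The duct sums overlapped, at 388 to 509 CPM in control and 256 to 620.5 CPM in sunitinib-treated tumors. The part of duct cells in the results was not tested.

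**Figure D5:**
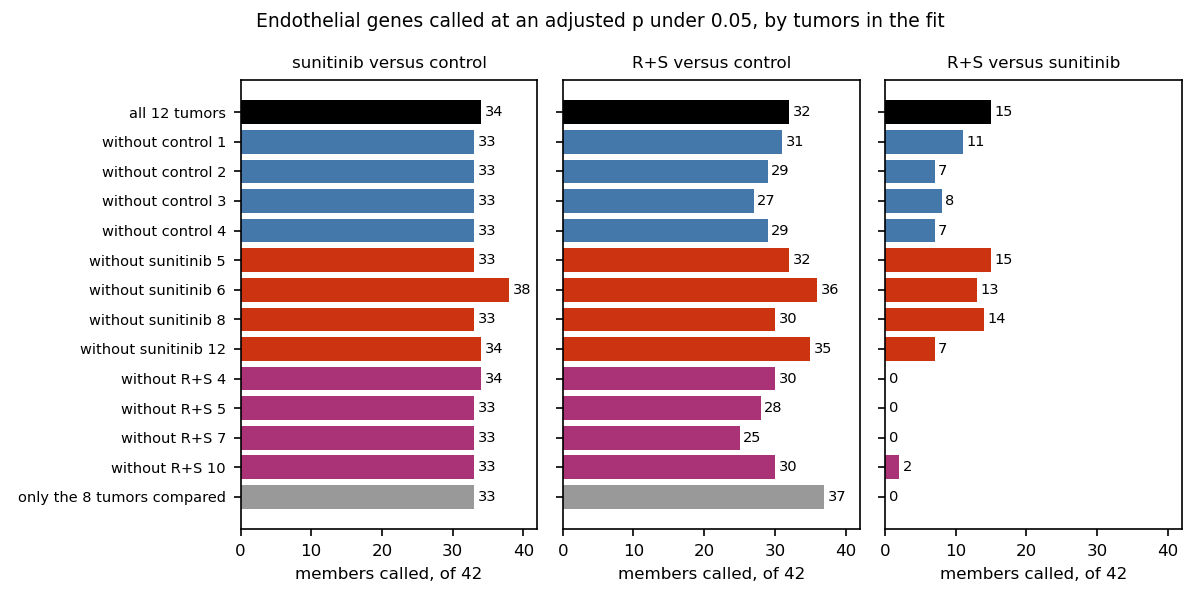
Number of the 42 genes called in each comparison in the fit of all tumors and in the 12 fits that leave 1 tumor out. The counts for sunitinib against control stay between 33 and 38, those for R+S against control between 25 and 36, and those for R+S against sunitinib between 0 and 15.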

How the data were processed

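RNA-seq was available for 12 tumors, 4 each of control, sunitinib and rapamycin plus sunitinib, grouped by their labels. The authors deposited whole-number counts of reads per gene for each tumor, without normalization, and these are the only unit used. The submitters' processing notes name cutadapt 1.2.1, TopHat2 2.0.9, HTSeq 0.5.4p3 and GRCm38, libraries were made with a stranded kit, and the strand setting of the counting is not given in the sources used here. Summary lines were left out: 12.1% to 19.5% of unique reads lay on no gene or on several, and 21203479 to 48418780 alignments per tumor were not unique, so that near-identical genes are undercounted. Counts on genes had a median of 38526164 per tumor, and counting error is large for genes with few reads. Within groups the tumors all differed by more than sampling noise. No per-sample column was left without a sample.

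Identifiers were paired with symbols by GENCODE M21 (37607 of 38924). Promoter windows came from RefSeq on GRCm38.p6. Counts were filtered (filterByExpr, minimum count 10, minimum total 15), scaled by TMM and fitted for all 12 tumors at once with the quasi-likelihood test of edgeR 4.0.16 (R 4.3.3, limma 3.58.1), with Benjamini-Hochberg adjustment over all genes in each comparison and a threshold of 0.05. The standard error is the absolute log2 fold change over the square root of F. CPM were computed from the counts with the normalized library sizes. The method was tested on simulated data. Alternatives were DESeq2 1.42.0, other scalings, no filter and a stricter filter, the 8 tumors compared alone and an acinar score as covariate. Others were summed label prefixes, other reference genes and each tumor left out. Prefixes were summed in the treated groups only, which left 2 sunitinib and 3 R+S libraries beside 4 control libraries.

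Values in every tumor are given for Pecam1, Cdh5 and Esam, for the genes of a vessel subtype, the signalling genes with Nos3 and the transcription factors, and for the 3 genes with the lowest and the 3 with the highest log2 fold change in sunitinib against control and in R+S against sunitinib. The other genes are given by range and count. The 42 genes, the other lists and the tests were chosen with earlier results of these data known.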

Additional observations from a re-analysis of the deposited data

Results flagged for a closer look

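In 126 groups of 4 tumors (42 genes in 3 groups), the highest or the lowest tumor was set against the others, and it was taken as standing apart where its gap to the nearest other tumor, as a share of the range of the group, exceeded Dixon's critical value. This was so in 6 groups, and chance alone gives about 1 in 20 groups. Arhgef15 was at 33.8 CPM in sunitinib-treated tumor 6 and at 1.09 to 1.98 CPM in the other 3. Mmrn2 was at 4.93 CPM in sunitinib-treated tumor 8 and at 2.76 to 2.96 CPM in the others. Emcn was at 7.46 CPM in R+S-treated tumor 4 and at 4.47 to 4.79 CPM in the others, and Kank3 was at 9.87 CPM in R+S-treated tumor 5 and at 8.21 to 8.46 CPM in the others. In control tumor 3, Plvap was at 162 CPM against 139 to 143 CPM in the others, and Icam2 was at 6.21 CPM against 4.92 to 5.11 CPM.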

How the results depend on the processing

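No paired analysis was made, because the labels do not pair tumors of different groups. Of 2759 alternative values for single genes, 2434 kept their direction and their side of the threshold. The cause was not tested for any change below. The 34 genes lower under sunitinib ranged from 33 to 38 with a tumor left out, and the 32 lower under R+S from 25 to 36. The acinar covariate left 0 in both, as it left 0 of all genes. Acinar sums were 41.05 to 128 CPM in control tumors and 2727 to 39430 CPM in treated tumors. This covariate can therefore hardly be told apart from treatment against control. The 15 genes higher under R+S than under sunitinib became 0 to 15 with a tumor left out, 8 with no filter, 0 with the 8 tumors alone and 1 (Robo4) with the acinar covariate. Relative to the junction genes, the 23 called under sunitinib ranged from 18 to 24, the 14 under R+S from 7 to 20, and the 4 of R+S against sunitinib from 0 to 5, or 7 with Tie1, Fli1 and Pecam1. The log2 difference in the Efnb2 to Ephb4 ratio, 0.51, 0.29 and -0.22 in the order of the report, ranged from 0.34 to 0.66, 0.13 to 0.40 and -0.37 to -0.05 with a tumor left out. With Sox17 in place of Efnb2 it was 0.47, 0.99 and 0.52 in that order, with exact p of 0.143, 0.0286 and 0.0857. After adjustment these were 0.143, 0.0858 and 0.129. For R+S against sunitinib the sign was thus opposite to that with Efnb2. Signs turned for 34 values of 9 genes, in comparisons that had not called them. With a tumor left out, the log2 difference of R+S from sunitinib ranged from -0.068 to 0.81 for Esam, -0.40 to 0.26 for Cldn5, -0.82 to 0.42 for Lyve1, -0.66 to 0.021 for Ramp2, -0.31 to 0.29 for Efnb2, -0.55 to 0.013 for Bmx, -2.45 to 0.52 for Arhgef15 and -0.24 to 0.27 for Kank3. That of sunitinib from control ranged from -0.25 to 0.028 for Vwf, -0.53 to 0.71 for Lyve1 and -0.33 to 0.23 for Bmx, and that of R+S from control from -0.33 to 0.063 for Lyve1. Under other settings, Cldn5 between R+S and sunitinib was 0.016 with no filter, 0.14 with the acinar covariate and 0.35 with summed prefixes. Efnb2 was 0.20 there with summed prefixes. Lyve1 between R+S and control was 0.91 with the acinar covariate. Bmx between sunitinib and control was -0.033 by library size, -0.0035 by upper quartile, -0.014 with no filter, -1.48 with the acinar covariate and -0.22 with summed prefixes.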
